A study of Homo sapiens with 6 samples.

Results

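The genes described here are 10 feedback inhibitors of mitogen-activated protein kinase (MAPK) signalling: the dual-specificity phosphatase genes DUSP1, DUSP4, DUSP5, DUSP6, DUSP8 and DUSP10, the Sprouty genes SPRY2 and SPRY4, and the Sprouty-related genes SPRED1 and SPRED2. They were found by gene symbol, 1 row each, among 29435 rows of the deposited expression table. The RNA-seq libraries were made from cells that the labels call HepG2, the name of a human liver cancer line, after 4 h with the vehicle DMSO (3 libraries) or with saikosaponin A (SsA), a triterpenoid saponin of Bupleurum root, at 20 µM (3 libraries). All 6 libraries carry the same cell line label, the cells were grown in serum-containing medium, and the labels name no genetic change in either group. Whether the libraries numbered 1 to 3 in each group were grown as separate cultures is not stated in the labels; every p-value below therefore reflects library-to-library spread, which may be technical.

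In the MAPK cascades, a kinase relay ends in ERK, JNK or p38, which are switched on by phosphorylation of a threonine and a tyrosine. MAP kinase phosphatases of the DUSP family remove both phosphates, and Sprouty and SPRED proteins act upstream, at the level of receptor adaptors, RAS and RAF. Several of these genes are transcribed in response to the pathway that they restrain, which makes them widely used markers of feedback.

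The 6 libraries held between 57768359 and 74912492 counts. Mitochondrially encoded genes took 14.9% of the counts of DMSO replicate 3 and 18.8% of those of SsA replicate 1, against 6.19% to 8.28% in the other 4 libraries. Hepatocyte markers were nearly absent: all 8 of the 12 listed genes that had a row, among them APOA1, TF, FGA and HNF4A, had a mean below 0.1 FPKM (fragments per kilobase, scaled to library depth), and their summed level was at most 0.0852 FPKM in any DMSO library and 0.0734 in any SsA library. A mean of at least 1 FPKM was reached by 3 of 6 stellate cell or fibroblast markers with a row, 0 of 4 endothelial, 1 of 2 leukocyte and 1 of 4 keratinocyte or other epithelial ones. The stellate cell and fibroblast markers summed to 33.5 to 44.4 FPKM in DMSO and 28.2 to 34.7 with SsA, and the keratinocyte and other epithelial ones to 258 to 340 in DMSO and 286 to 414 with SsA. Their part in the results was not tested. The marker levels thus go against a hepatocyte-like label, and which cells these are was not settled here.

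DUSP1 was by far the most abundant of the 10 transcripts, and SsA changed the order below it. On the per-length scale of deposited FPKM, the DMSO libraries had DUSP1 at 42.7 ± 3.10 (SD, n = 3), SPRED2 at 4.99 ± 0.520, SPRY2 at 2.82 ± 0.499, SPRED1 at 2.62 ± 0.145, DUSP8 at 1.81 ± 0.248 and DUSP5 at 1.27 ± 0.213. DUSP10 (0.760 ± 0.0840), DUSP4 (0.517 ± 0.119), DUSP6 (0.192 ± 0.0938) and SPRY4 (0.0778 ± 0.0123) followed below 1 FPKM. In that order only the ranges of the neighbours SPRY2 and SPRED1 overlapped. With SsA, DUSP5 stood second at 2.97 ± 0.641 FPKM, and its range overlapped that of SPRY2 (2.47 ± 0.0518), which overlapped SPRED2 (2.19 ± 0.345), which overlapped SPRED1 (1.77 ± 0.329). DUSP4 (0.771 ± 0.110) overlapped DUSP10 (0.724 ± 0.121), and DUSP6 and SPRY4 remained lowest at 0.278 ± 0.0444 and 0.0902 ± 0.0223 FPKM.

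Genes with at least 1 FPKM in at least 3 libraries entered the comparison, which left 11427 rows. Among the 10 feedback genes, DUSP1, DUSP5, DUSP8, SPRY2, SPRED1 and SPRED2 passed this limit, each in at least 5 libraries. DUSP4, DUSP6, DUSP10 and SPRY4 passed it in none, and their tests come from a fit to all 29435 rows. By edgeR's quasi-likelihood test with Benjamini-Hochberg adjustment over all rows tested and a threshold of 0.05, 2 of the 6 genes that passed were higher with SsA (25.9% of all tested rows were higher), 3 were lower (27.9% of all tested rows were lower) and SPRY2 was not called. In both directions together 53.8% of all tested rows were called, so a count of 5 in 6 is not far from the background. The groups did not overlap for the same 5 genes, SsA lying above DMSO in 2 (30.4% of all tested rows) and below in 3 (32.4%; 62.8% in either direction). In the fit to all rows, 20.7% were called in either direction, and of the 4 genes below the limit 1 was. That share includes the rows that passed the limit, and the share among rows below it is not given here.

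**Figure D1:**
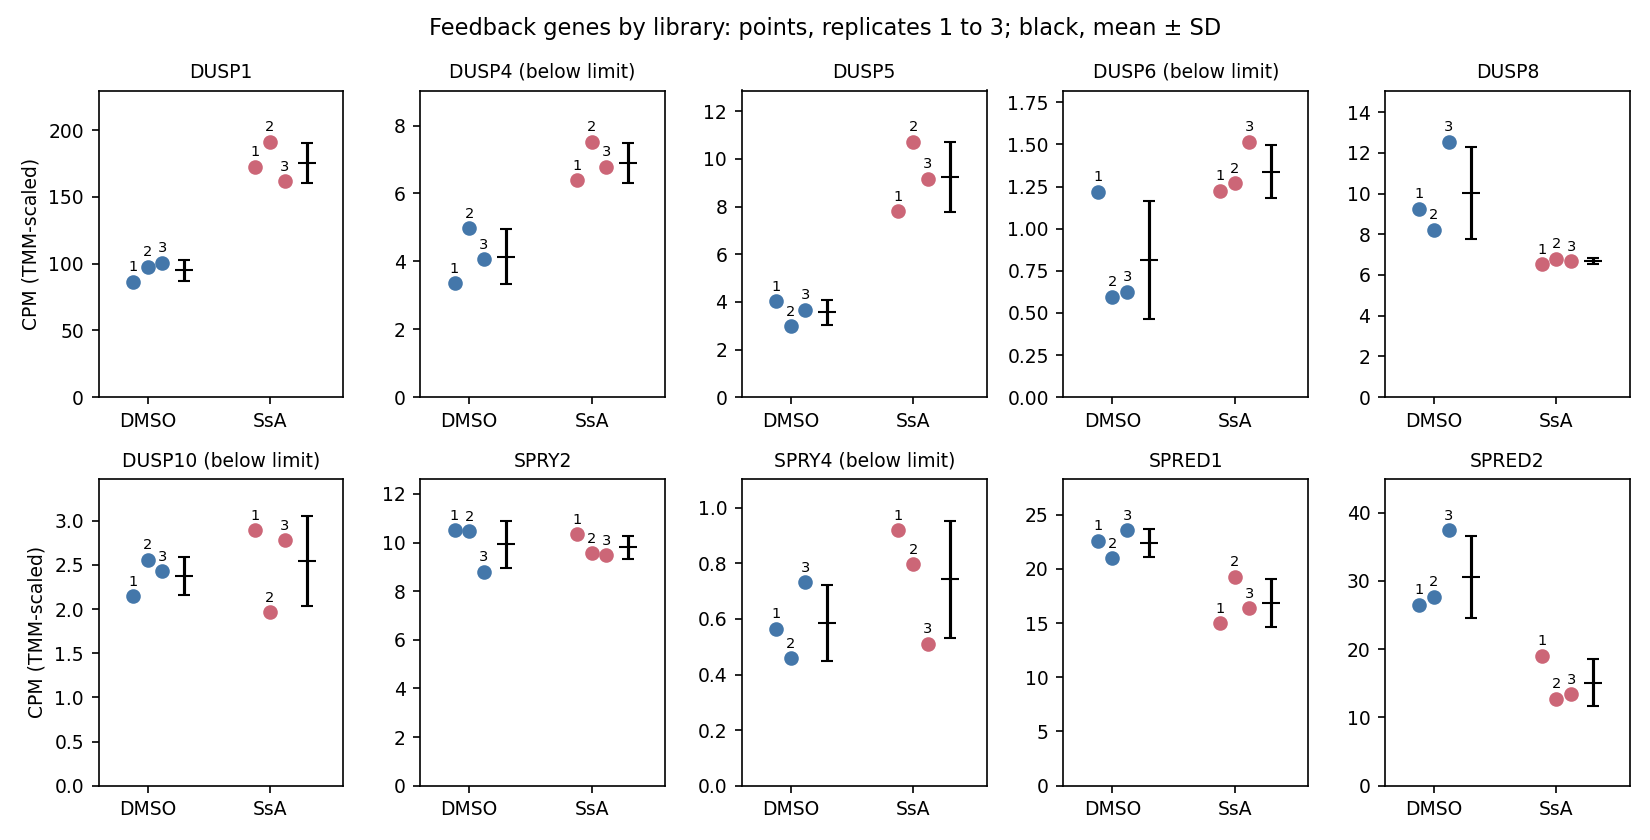
Each panel shows 1 gene, with CPM (counts scaled to the TMM-adjusted library size) on an axis from 0 for DMSO and SsA replicates 1 to 3; black marks are the mean ± SD of 3 libraries, and "below limit" marks genes that did not reach 1 FPKM in 3 libraries. All SsA points lie above all DMSO points for DUSP1, DUSP4, DUSP5 and DUSP6 and below them for DUSP8, SPRED1 and SPRED2.

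DUSP5 and DUSP1, the nuclear phosphatase genes that were tested, rose. DUSP5 encodes a nuclear phosphatase that acts on ERK. Its level was 4.03, 2.97 and 3.68 CPM in DMSO replicates 1, 2 and 3 and 7.80, 10.7 and 9.17 CPM in SsA replicates 1, 2 and 3. The lowest SsA library thus stood well above the highest DMSO library. The log2 fold change was 1.38 ± 0.19 (SE), or 2.60-fold, with edgeR adjusted p = 0.00129, and this rise passed the threshold in each of the alternatives in which DUSP5 was tested. DUSP5 lies on chromosome 10, 110497907 to 110511533 (GRCh38, plus strand). The annotation names the pseudogenes DUSP5P1 and DUSP5P2, and the sources used here do not say how reads shared with such copies were assigned.

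DUSP1 encodes the classical immediate early MAP kinase phosphatase, which acts on p38, JNK and ERK. It was measured at 86.4, 97.6 and 101 CPM in DMSO replicates 1, 2 and 3 and at 173, 191 and 162 CPM in SsA replicates 1, 2 and 3. The groups were far apart relative to their spread, at 94.9 ± 7.51 and 175 ± 15.1 CPM (SD, n = 3). The log2 fold change was 0.89 ± 0.09 (SE; adjusted p = 3.92e-04 by edgeR), 1.85-fold. On the TPM scale (FPKM rescaled to 1 total in every library), which shifted the median of all tested genes to -0.31, DUSP1 was higher by 0.52 and did not pass (limma adjusted p = 0.193). DUSP1 lies on chromosome 5, 172768096 to 172771195 (minus strand).

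In CPM, DUSP4 and DUSP6 stood higher with SsA at low counts, and of these only DUSP4 passed the test. DUSP4, another nuclear phosphatase gene, was at 3.36, 4.98 and 4.07 CPM in DMSO replicates 1, 2 and 3 and at 6.38, 7.53 and 6.79 CPM with SsA, from 228 to 510 counts per library. The groups did not overlap, and in the fit to all rows, where 9.95% were called higher, DUSP4 passed with a log2 fold change of 0.79 ± 0.19 (SE; adjusted p = 0.0178 by edgeR). DUSP4 no longer passed without DMSO replicate 1 (adjusted p = 0.0637 by edgeR), DMSO replicate 3 (0.0514), SsA replicate 2 (0.0684) or SsA replicate 3 (0.0507), while the log2 fold change stayed between 0.66 and 0.95.

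DUSP6, which encodes a cytoplasmic phosphatase selective for ERK, was at 1.22, 0.596 and 0.625 CPM in DMSO and at 1.23, 1.27 and 1.52 CPM with SsA. DMSO replicate 1 reached almost the level of the lowest SsA library, and the other DMSO libraries stood lower. On the FPKM scale the groups overlapped, DMSO replicate 1 (0.300) lying above SsA replicates 1 (0.235) and 2 (0.276). With 35 to 95 counts per library the log2 fold change of 0.77 ± 0.37 (SE) did not pass (adjusted p = 0.201 by edgeR), its 95% interval running from -0.06 to 1.6. Without DMSO replicate 1 it was 1.18 (adjusted p = 0.063 by edgeR).

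DUSP8 and DUSP10 encode phosphatases directed at JNK and p38, and neither was higher. DUSP8 was at 9.25, 8.23 and 12.6 CPM in DMSO replicates 1, 2 and 3 and at 6.54, 6.80 and 6.69 CPM in SsA replicates 1, 2 and 3. The SsA libraries were close together and all below DMSO, whose replicate 3 was the highest. DUSP8 fell by 0.58 ± 0.18 log2 units (SE; adjusted p = 0.0294 by edgeR). DUSP8 no longer passed without SsA replicate 1 (adjusted p = 0.0578 by edgeR), SsA replicate 2 (0.0763) or SsA replicate 3 (0.0786), and with a correction for transcript length (-0.44, edgeR adjusted p = 0.0826). DUSP8 lies on chromosome 11, 1554051 to 1572271 (minus strand), where the antisense gene KRTAP5-AS1 overlaps it. The annotation also names 3 DUSP8 pseudogenes.

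DUSP10 was at 2.14, 2.56 and 2.43 CPM in DMSO and at 2.89, 1.96 and 2.78 CPM with SsA, so the groups overlapped. The log2 fold change was 0.15 ± 0.23 (SE; adjusted p = 0.694 by edgeR), with a 95% interval from -0.38 to 0.68. Falls and rises within that interval were thus compatible with the 133 to 206 counts per library.

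The promoters of DUSP1 and DUSP8 shared a sequence feature although the genes moved in opposite directions. RefSeq promoter windows (GRCh38.p14, 250 bases before to 50 after a start site) were held for 8 of the 10 genes, 12 windows in all. Both strands were searched for TGACGTCA, the full cAMP response element (CRE) bound by CREB and ATF factors. DUSP1 had 1 match, beginning 125 bases before its start site, and DUSP8 had 2, beginning 118 and 74 bases before its own; the other 10 windows had none. Of all 35116 windows, 1.85% held this motif. The stretches from 180 bases before the start site to the base before it are shown for these 2 genes and, as a gene that fell without the motif, for SPRED2, with CRE and TATAAA matches in capitals. They run 5′ to 3′ on the minus strand, at chr5:172771196-172771375 for DUSP1, chr11:1572272-1572451 for DUSP8 and chr2:65432600-65432779 for the outermost SPRED2 start site.
DUSP1: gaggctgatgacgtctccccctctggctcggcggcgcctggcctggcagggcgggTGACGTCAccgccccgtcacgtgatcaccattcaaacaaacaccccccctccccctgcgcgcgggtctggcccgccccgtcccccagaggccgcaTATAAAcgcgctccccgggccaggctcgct
DUSP8: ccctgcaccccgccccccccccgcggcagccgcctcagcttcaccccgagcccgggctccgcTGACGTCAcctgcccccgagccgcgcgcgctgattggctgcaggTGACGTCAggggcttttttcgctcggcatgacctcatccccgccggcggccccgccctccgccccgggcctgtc
SPRED2: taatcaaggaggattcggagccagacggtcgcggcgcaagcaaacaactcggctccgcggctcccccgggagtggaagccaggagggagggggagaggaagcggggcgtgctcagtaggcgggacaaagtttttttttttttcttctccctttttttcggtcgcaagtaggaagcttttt

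DUSP1 also had TATAAA beginning 30 bases before its start site, a motif held by 11.5% of all windows, and the inner SPRED2 window had it 31 bases before its own; the DUSP8 window had none. The shorter core TGACG, which lies within the full CRE, was held by 6 of the 12 windows and by 24.6% of all windows. DUSP1 had it also at 172 and 111 bases before the start, and SPRY2, SPRY4, 1 window of DUSP10 and 1 of SPRED2 (31 bases into the transcript) had it alone. The ETS core CCGGAA (17.2% of all windows) was found in 1 SPRY2 window, the AP-1 motif TGANTCA (7.71%) in the inner SPRED2 window, and the CArG box (1.29%) in none. Over the 339 tested genes with a full CRE in a window, 27.7% were higher and 27.4% lower, beside 26.6% and 29.4% of the 8400 tested genes with any window. A match describes the letters of the window and not the binding of a factor, and this search was chosen after the expression values were seen.

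Among the Sprouty and SPRED genes, the SPRED genes fell and the Sprouty genes did not pass the test. SPRED2 encodes a membrane-anchored inhibitor that holds RAF in check and, like SPRED1, recruits neurofibromin to RAS. It was at 26.5, 27.7 and 37.4 CPM in DMSO replicates 1, 2 and 3 and at 19.0, 12.7 and 13.4 CPM in SsA replicates 1, 2 and 3. The highest SsA library was below the lowest DMSO library. SPRED2 fell by 1.02 ± 0.20 log2 units (SE; adjusted p = 0.00483 by edgeR), a 2.03-fold lower level, and passed the threshold in each of the alternatives in which it was tested. SPRED2 lies on chromosome 2, 65310851 to 65432599 (minus strand), and the gene AC012370.1 overlaps it on the same strand.

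SPRED1 was at 22.6, 21.0 and 23.6 CPM in DMSO and at 15.0, 19.3 and 16.4 CPM with SsA, with all SsA libraries below all DMSO libraries. It fell by 0.41 ± 0.11 log2 units (SE; adjusted p = 0.0205 by edgeR). SPRED1 no longer passed without DMSO replicate 1 (adjusted p = 0.0525 by edgeR) or SsA replicate 3 (0.0688), and with the correction for transcript length the log2 fold change was -0.07 (adjusted p = 0.654 by edgeR). SPRED1 lies on chromosome 15, 38252836 to 38357249 (plus strand).

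SPRY2, the most abundant Sprouty gene here, was at 10.5, 10.5 and 8.80 CPM in DMSO replicates 1, 2 and 3 and at 10.4, 9.56 and 9.49 CPM in SsA replicates 1, 2 and 3. The groups overlapped closely. Its log2 fold change was -0.02 ± 0.12 (SE; adjusted p = 0.904 by edgeR), and the 95% interval ran from -0.31 to 0.27. SPRY4 was near the floor at 32 to 54 counts per library, with 0.565, 0.460 and 0.732 CPM in DMSO and 0.920, 0.797 and 0.511 CPM with SsA. Its groups overlapped and its log2 fold change of 0.40 ± 0.39 (SE; adjusted p = 0.516 by edgeR) had an interval from -0.50 to 1.3, which is too wide to tell a rise from a fall.

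**Figure D2:**
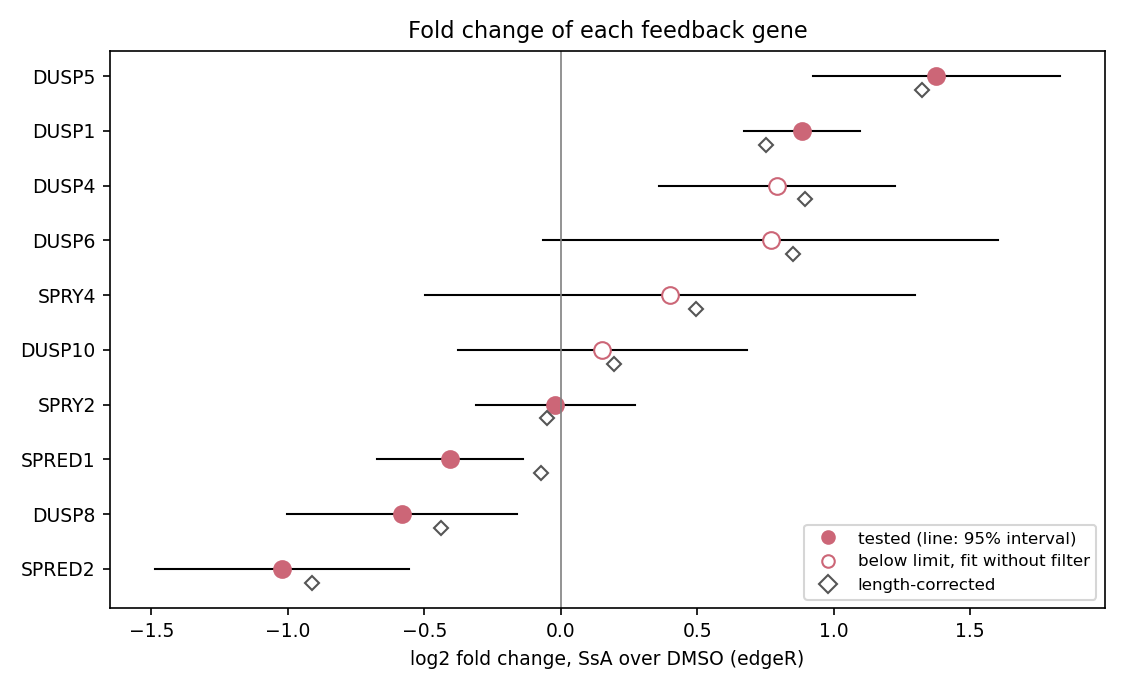
The log2 fold change of each gene, SsA over DMSO, is plotted as a circle with its 95% interval (filled, tested; open, below the FPKM limit and taken from the fit to all rows), and a diamond gives the value after the length correction. DUSP5, DUSP1 and DUSP4 lie above 0 and SPRED1, DUSP8 and SPRED2 below it with intervals clear of 0, and the diamond of SPRED1 moves to -0.07.

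Transcript length was related to the fold change in these libraries (the cause was not tested), so each gene was set beside tested protein-coding genes of like length (10 groups of 1004 genes by longest annotated transcript). DUSP5 (2557 nt) stood above the upper quartile of its group, 0.44, and DUSP1 (2019 nt) above its own, 0.59. DUSP4 (5537 nt) stood well above an upper quartile of -0.04, so this gene was higher while most genes of its length were lower. SPRED2 (4097 nt) lay below a lower quartile of -0.30 and DUSP8 (4480 nt) below one of -0.43. SPRED1 (7780 nt), by contrast, lay within the quartiles of the longest group, -1.02 to -0.30, and SPRY2 (2708 nt) and DUSP10 (2676 nt) within -0.07 to 0.31. After the length correction DUSP5 was at 1.32 ± 0.19 (adjusted p = 0.00243 by edgeR), DUSP1 at 0.75 ± 0.09 (0.00138), DUSP4 at 0.90 ± 0.18 (0.0105) and SPRED2 at -0.91 ± 0.19 (0.00958) on the log2 scale (SE). These 4 therefore stayed called, and DUSP8 and SPRED1 did not. The correction is 1 linear trend per library over the rows of the fit. These were all tested rows for the genes that passed the limit and all 29435 rows for DUSP4. The corrected value of DUSP4 is therefore not on the same trend as the others. The correction moved DUSP1 from 0.89 to 0.75, while the median of its length group was 0.42, so part of the length trend can remain in corrected values.

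**Figure D3:**
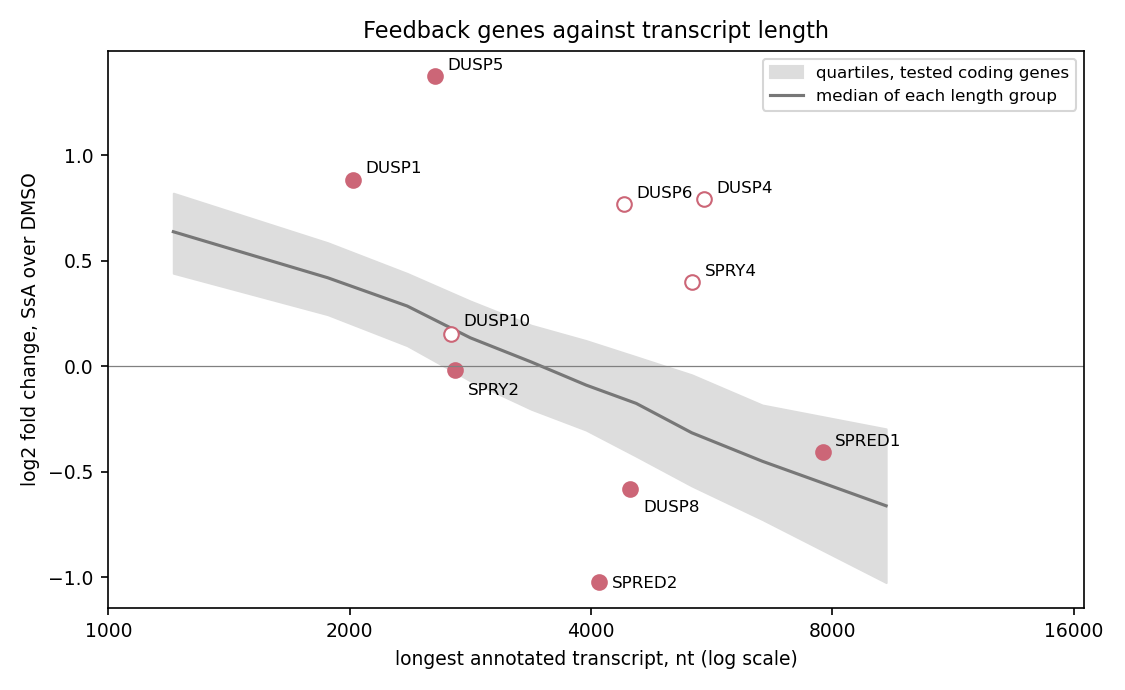
The log2 fold change of each feedback gene (circles; filled, tested; open, below the FPKM limit) is plotted against its longest annotated transcript on a log scale, with the median and quartiles of tested coding genes in 10 length groups in grey. SPRED1, SPRY2 and DUSP10 lie inside the grey band, DUSP1, DUSP4, DUSP5, DUSP6 and SPRY4 above it, and DUSP8 and SPRED2 below it.

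For the 5 tested genes that were called, and for DUSP4, the groups did not overlap in CPM. The direction in any subset of libraries was therefore fixed in advance. Only the sizes are compared here between the libraries of high mitochondrial share and the rest. Between SsA replicate 1 and DMSO replicate 3, the pair of high share, the log2 ratio of CPM was 1.08 for DUSP5, 0.78 for DUSP1, -0.98 for SPRED2, -0.94 for DUSP8 and -0.65 for SPRED1. In the fit to the other 4 libraries the log2 fold changes were 1.48, 0.91, -1.08, -0.40 and -0.32 in the same order, each past the threshold (edgeR adjusted p from 1.34e-05 for SPRED2 to 0.0346 for DUSP8). DUSP4 had a log2 ratio of 0.65 in the pair and 0.81 in the other 4 libraries (adjusted p = 0.0556 by edgeR).

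Pathway terms and a motif of unstable messages were shared by genes that rose and genes that fell. In the deposited annotation all 6 DUSP genes carried the MAPK signaling pathway term and the MAP kinase phosphatase activity term, while 8 of the 10 genes, DUSP5 and DUSP8 excepted, carried negative regulation of the ERK1 and ERK2 cascade. The motif TATTTAT, a core of AU-rich elements that mark unstable messages, was searched on the transcript strand of annotated 3′ UTRs. It was present in 7 of the 10 genes, against 35.2% of tested genes with an annotated 3′ UTR. Of the 3516 tested genes with the motif 13.9% were higher and 42.6% lower (median log2 fold change -0.19), beside 26.6% and 29.4% of the 9977 with a 3′ UTR (median 0.01). There were 3 matches in DUSP1, 4 in DUSP4, 2 in DUSP8, 2 in SPRY2, 4 in SPRY4, 5 in SPRED1 and 1 in SPRED2, and none in DUSP5, DUSP6 or DUSP10. UTR length was not matched in these shares: that of SPRED1 has 5585 nt and that of DUSP1 672 nt, beside a median of 1308 nt.

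The relatives of these genes moved in both directions. Of 4 other MAP kinase phosphatase genes, all tested, 1 rose (25.9% of all tested rows did), 2 fell (27.9%) and DUSP9 was not called. DUSP2, a nuclear phosphatase gene, went from 8.51 ± 1.24 to 15.6 ± 4.35 CPM (SD, n = 3; 0.87 ± 0.23 log2 units, SE; adjusted p = 0.0169 by edgeR), a call lost without SsA replicate 2 (adjusted p = 0.0635 by edgeR) or SsA replicate 3 (0.0597). DUSP16, whose product acts on JNK and p38, fell from 87.5 ± 3.37 to 54.2 ± 3.59 CPM (-0.69 ± 0.07 log2 units, SE; adjusted p = 4.27e-04 by edgeR). The cytoplasmic ERK phosphatase gene DUSP7, named after its values were seen, fell by 0.58 log2 units (adjusted p = 0.03 by edgeR), a call lost without DMSO replicate 3 (adjusted p = 0.0663 by edgeR), SsA replicate 2 (0.0985) or SsA replicate 3 (0.0853).

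Of 9 atypical DUSP genes 5 were tested, and 1 rose (2 without DMSO replicate 3) and 0 fell by edgeR (0 fell also at an unadjusted p below 0.05 and by DESeq2, but 1 fell under each of the settings given with DUSP3). DUSP14 rose by 0.32 ± 0.09 log2 units (SE; adjusted p = 0.0172 by edgeR), lost without SsA replicate 2 (adjusted p = 0.0556 by edgeR) or SsA replicate 3 (0.064), and on the TPM scale it was at -0.04. After the length correction DUSP14 was at 0.22 (adjusted p = 0.0837 by edgeR), and 0 of the list were higher and 0 lower. DUSP3 was at -0.14 ± 0.06 (adjusted p = 0.104 by edgeR), and it passed as lower when rows under a mean of 5 FPKM were dropped (-0.25, adjusted p = 0.0119 by edgeR) or when the pair of high mitochondrial share was (-0.18, adjusted p = 0.0263 by edgeR). DUSP23, named after its values were seen, was below the FPKM limit at 21 to 108 counts per library. In the fit to all rows, where 9.95% were called higher, it rose by 1.38 ± 0.40 log2 units (SE; adjusted p = 0.0414 by edgeR). After the length correction, with its trend also taken over all rows, DUSP23 did not pass (adjusted p = 0.0549 by edgeR). DUSP18, DUSP19 and DUSP28, also below the limit, were not called (edgeR adjusted p = 0.289, 0.944 and 0.749). SPRY1, SPRY3 and SPRED3 were below the FPKM limit too. In the fit to all rows, where 10.8% were called lower, SPRY1 and SPRY3 did not pass (-0.31 and -0.48, edgeR adjusted p = 0.678 and 0.456). SPRED3, named after its values were seen, fell from 2.72 ± 0.492 to 1.199 ± 0.405 CPM (SD, n = 3; -1.13 ± 0.31 log2 units, SE; adjusted p = 0.0323 by edgeR). At 49 to 234 counts per library, SPRED3 did not pass without DMSO replicate 1 (adjusted p = 0.0988 by edgeR), DMSO replicate 3 (0.0883), SsA replicate 2 (0.0819) or SsA replicate 3 (0.0868), or with the replicate block (0.0862).

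Other inhibitors of receptor and RAS-ERK signalling were mostly lower. Of 13 listed genes 10 were tested, and 2 rose (25.9% of all tested rows did) and 7 fell (27.9%). Their median log2 fold change was -0.65, beside 0.03 over all tested genes. CBL, a ubiquitin ligase that marks activated receptors for degradation, fell from 73.4 ± 6.34 to 33.5 ± 0.348 CPM (SD, n = 3; -1.13 ± 0.08 log2 units, SE; adjusted p = 1.2e-04 by edgeR). NF1, which encodes neurofibromin, the RAS GTPase-activating protein that SPRED proteins recruit, fell from 161 ± 15.99 to 77.1 ± 8.36 CPM (-1.07 ± 0.11 log2 units, SE; adjusted p = 3.49e-04 by edgeR). Both have long transcripts, of 11231 and 12425 nt, and lay below the lower quartile of the longest group, -1.02. After the length correction both stayed lower, at -0.67 and -0.57 (edgeR adjusted p = 9.68e-04 and 0.00176), though part of the length trend can remain. The list then had 2 higher and 6 lower (2340 and 2138 of all 11427 tested rows), with a median of -0.44 beside 0.05. The others that fell, named after their values were seen, were RASAL2, in the longest group, LRIG1, RASA1, RASA2 and LRIG3. LRIG1, RASA1 and RASA2 were in group 8 of 10 by length (median -0.32) and LRIG3 in group 6 (-0.09). The 2 that rose, named after their values were seen, were PEBP1, which encodes the Raf kinase inhibitor protein, at 0.61 (adjusted p = 4.77e-04 by edgeR) and ERRFI1, an inhibitor of the EGF receptor, at 0.32 (adjusted p = 0.039 by edgeR). ERRFI1 lost its call without any 1 library other than SsA replicate 3 (edgeR adjusted p from 0.0648 without SsA replicate 1 to 0.141 without SsA replicate 2) and was at -0.04 on the TPM scale.

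In the RAS-ERK cascade itself, 23 of 25 genes were tested, and 4 rose (25.9% of all tested rows did) and 10 fell (27.9%), with a median log2 fold change of -0.15. RPS6KA3, which encodes an ERK-activated kinase, fell by 0.46 ± 0.05 log2 units (SE; adjusted p = 6.3e-04 by edgeR). RPS6KA3 (8111 nt) no longer passed after the length correction (-0.11, edgeR adjusted p = 0.128). In the list 5 genes were then lower (2138 of all 11427 tested rows were). Those that rose, named after their values were seen, were HRAS (0.80), RRAS (0.59) and the MEK genes MAP2K1 (0.38) and MAP2K2 (0.31; -0.05 on the TPM scale), with edgeR adjusted p from 0.00293 to 0.0156. MAP2K1 lost its call without DMSO replicate 1 (adjusted p = 0.0561 by edgeR), SsA replicate 2 (0.0606) or SsA replicate 3 (0.0565). RRAS was at 0.23 after the length correction (adjusted p = 0.166 by edgeR). Without it, HRAS (1233 nt) and RRAS (1044 nt) lay within the quartiles of the shortest length group, 0.44 to 0.82. MAP2K1 (3410 nt) lay above the upper quartile of its group, 0.19, and MAP2K2 (2926 nt) at that of its own, 0.31.

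Of 19 genes for JNK, p38 and ERK5 kinases and their activators 18 were tested, with a median of -0.18. By edgeR 0 rose (25.9% of all tested rows did) and 8 fell (27.9%). At an unadjusted p below 0.05 and by DESeq2, 0 rose as well. MAPK13, named after its values were seen, was below the FPKM limit at 30 to 207 counts per library. In the fit to all rows, where 10.8% were called lower, MAPK13 was at -1.44 ± 0.32 (SE) on the log2 scale (adjusted p = 0.0139 by edgeR). MAPKAPK2, a kinase downstream of p38, fell by 0.46 ± 0.07 and MAP2K7, an activator of JNK, by 0.48 ± 0.07 on the log2 scale (SE; adjusted p = 0.00138 and 0.00166 by edgeR). The counts for this list depended on the length correction. With it the list median was -0.03 (0.05 over all tested rows), and 2 were higher and 4 lower (2340 and 2138 of all 11427 tested rows). Its 2 higher genes, named after their values were seen, were MAPK12 (0.63, edgeR adjusted p = 0.0309) and MAP2K6 (0.26, edgeR adjusted p = 0.0269; -0.26 and called lower without the correction, though not without DMSO replicate 1). Without DMSO replicate 2, 1 gene of the list rose (MAPK12, 0.52, edgeR adjusted p = 0.0485; 0.28 and 0.0347 without the pair of high mitochondrial share), and without DMSO replicate 1, 5 fell.

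Among other genes often read as ERK outputs, more rose than fell by edgeR. Of 16 listed, 14 were tested, and 6 rose (25.9% of all tested rows did) and 1 fell (27.9%), with a median of 0.34. At an unadjusted p below 0.05, 7 rose and 3 fell. The number that fell was 2 without DMSO replicate 2 and 3 without SsA replicate 1, and limma called 3 higher and 3 lower on log2(FPKM + 1), and 0 higher and 2 lower with TPM values. IER3, an early response gene, went from 54.3 ± 1.24 to 86.3 ± 0.279 CPM (SD, n = 3; 0.67 ± 0.06 log2 units, SE; adjusted p = 2.02e-04 by edgeR). PLAUR, the urokinase receptor gene, went from 15.2 ± 0.679 to 24.9 ± 1.77 CPM (0.72 ± 0.09 log2 units, SE; adjusted p = 7.96e-04 by edgeR). IER3 (1350 nt) lay within the quartiles of the shortest length group, 0.44 to 0.82, and PLAUR (1610 nt) above the upper quartile of its group, 0.59. CCND1, the cyclin D1 gene and the 1 that fell, was at -0.44 (edgeR adjusted p = 0.00103; named after its values were seen). After the length correction 5 were higher and 1 lower. By the deposited annotation, 170 tested genes carried the MAPK signaling pathway term, of which 33 (19.4%) were higher and 62 (36.5%) lower, beside 25.9% and 27.9% of all tested rows. Transcript length was not matched in these shares, and its part in them was not tested.

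**Figure D4:**
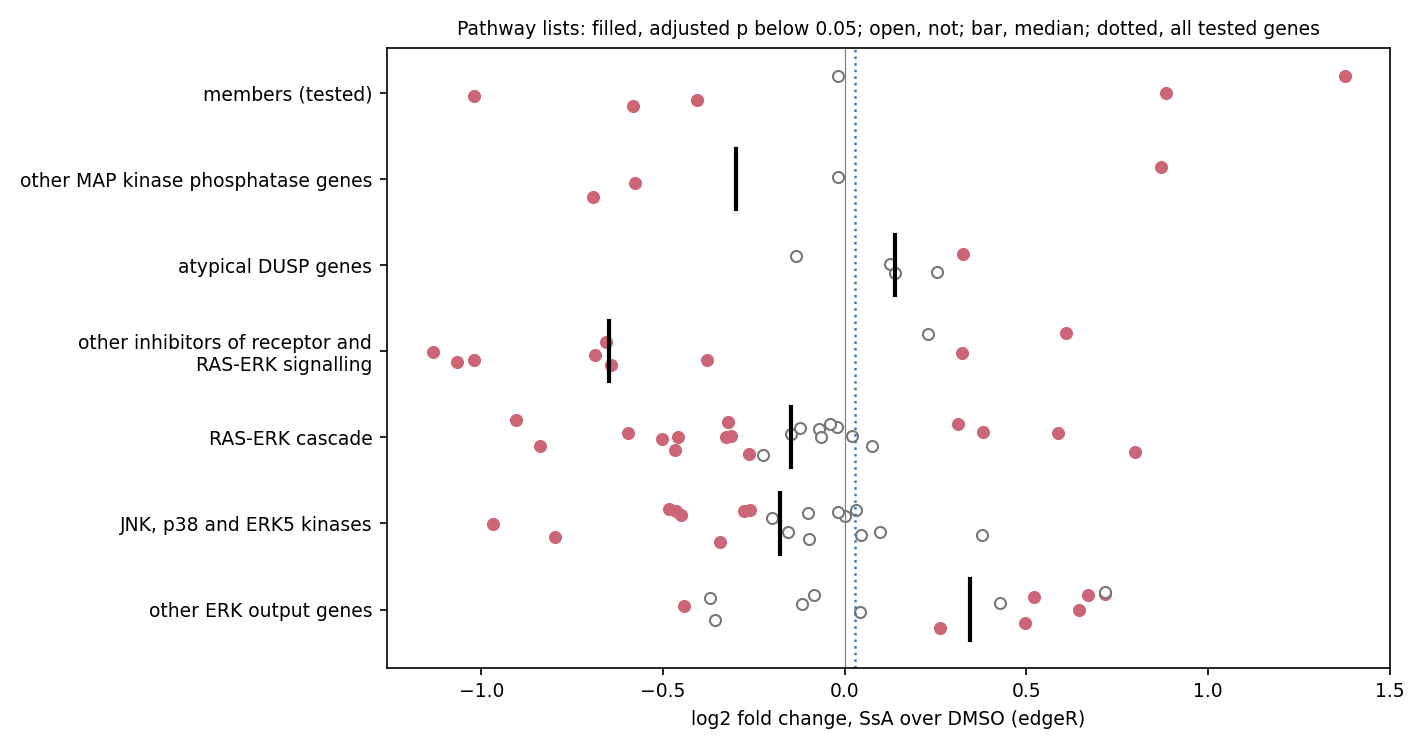
Each point is 1 tested gene, placed by its log2 fold change, SsA over DMSO, in the row of its list (filled, edgeR adjusted p below 0.05; open, not); bars are medians of the 6 other lists and the dotted line is the median of all tested genes, 0.03. The other inhibitors centre on -0.65 and the other ERK output genes on 0.34, while the 6 feedback genes tested spread from -1.02 to 1.38.

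The genes whose levels ran most like those of the feedback genes across the 6 libraries were sought for the 2 highest (DUSP5, DUSP1) and the 2 lowest log2 fold changes (SPRED2, DUSP8), by the root mean square difference of centred log2 CPM over 11426 other tested genes. For DUSP5 they were the pseudogene row RPS3AP21 (0.12) and the row of the microRNA gene MIR25 (0.17), and for DUSP1 the pseudogene row EEF1A1P6 (0.05) and PTRHD1 (0.07). For SPRED2 they were C2CD3 (0.04) and GPATCH8 (0.07), and for DUSP8 CCDC66 (0.07) and PHACTR2 (0.07). None of these 8 rows belongs to the gene lists used here, and DUSP5 had the least close neighbours.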

How the data were processed

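Gene expression was measured by RNA-seq in 6 libraries, made from poly(A) RNA with dUTP strand marking, per the labels' protocols. The submitters' processing notes name GRCh38 as the build and the tools HISAT2 2.0.4, StringTie 1.3.4d and cutadapt 1.9; settings, annotation release and how counts were made are not given there. The deposited table holds whole-number counts per gene, whose totals differ between libraries as raw counts do. FPKM values in the same deposited table, so named per the file headers, served for the expression filter and per-length levels. Columns whose names hold SA were assigned to saikosaponin A.

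TMM-scaled counts were compared with edgeR 4.0.16 (quasi-likelihood, two-sided, no covariate) for rows reaching 1 FPKM in 3 or more libraries. SE is the log2 fold change over the square root of F, and the biological coefficient of variation was 15.3%. Alternatives were DESeq2 1.42.0, upper-quartile scaling, other filters, a replicate block, leaving out libraries, limma 3.58.1 on log2(FPKM + 1), log2(FPKM + 0.1) and log2(TPM + 1), and a length correction, in which each library's linear trend of log2 CPM on log2 length of the longest GENCODE 29 transcript entered as an offset (99.6% of tested rows had a length). Only the edgeR fit without a block and its length correction were tested on simulated data, with 1 dispersion for all genes. In the main simulation 67, 67 and 66 of 11427 genes changed 1.5-fold, 2-fold and 4-fold, a far smaller share than was called in these data. The edgeR fit recovered 50.7% of the 1.5-fold and 98.5% of the 2-fold changes, and 6.74% of its calls were false. The feedback genes, the 7 gene lists and all tests were chosen with earlier results of these data known. Named genes were all 10 feedback genes, up to 2 tested genes of smallest p per list, and the 2 nearest rows in level for each of 4 feedback genes. Of these, 1 gene is not reported here. Promoter windows came from RefSeq (8 of 10 genes matched by symbol).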

Additional observations from a re-analysis of the deposited data

How the results depend on the processing

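Over all tested rows 6146 were called (2956 higher, 3190 lower); leaving out 1 library gave 4599 to 6402. A mean FPKM of at least 5 gave 3428 (1666 higher, 1762 lower) from fewer rows, limma on log2(FPKM + 1), log2(FPKM + 0.1) and log2(TPM + 1) gave 914, 886 and 49 higher around medians of -0.11, -0.13 and -0.31, the last with 2495 calls in all, and the length correction gave 4478. Of the 6 tested feedback genes 5 were called. Calls fell to 3 (1 lower) without the expression filter, with the replicate block, with the length correction and with both, and to 3 (2 lower, 1 higher) on the TPM scale; only DUSP1 reached a mean FPKM of 5, so 1 was higher and 0 lower there. Leaving out 1 library left 3 to 5 called, always 2 higher and 1 to 3 lower. DUSP1 and DUSP5 stayed higher and SPRED2 lower throughout, and the sole loss of a call among these 3 was DUSP1 on the TPM scale (0.52, limma adjusted p = 0.193).

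Beyond the values given with each gene, with the length correction DUSP8 was at -0.44 and SPRED1 at -0.073; DUSP8 lost its call without the expression filter (-0.52), and SPRED1 likewise (-0.35) and on the TPM scale (-0.68, limma adjusted p = 0.0779). DUSP4 lost it in the 4 libraries of low mitochondrial share (0.81) and with limma (0.22 and 0.51 on FPKM, 0.26 on TPM). Leave-one-out ranges were 0.66 to 0.95 for DUSP4, -0.71 to -0.41 for DUSP8, -0.51 to -0.33 for SPRED1 and -0.11 to 0.020 for SPRY2. The sign turned, with no call on either side, for SPRY2 (0.033 with upper-quartile scaling, 0.035 without the filter; 0.020, 0.016 and 0.0034 without DMSO replicates 1 and 2 and SsA replicate 3) and for DUSP10 (-0.032, -0.069 and -0.20 with limma). Among other named genes it turned for DUSP14 (-0.036), ERRFI1 (-0.043) and MAP2K2 (-0.053) on the TPM scale, and with the length correction for MAP2K6 (0.26, and 0.26 with the block) and MIR25 (-0.027, and -0.0071 with the block). Over the 7 lists 14 genes were higher and 28 lower; leaving out 1 library gave 8 to 14 and 23 to 32. Higher and lower were 7 and 16 at a mean FPKM of 5, 18 were lower with the length correction, and 5, 5 and 0 were higher with limma on the FPKM scales and on TPM. Apart from the changes by construction (fewer rows or libraries), the cause was not tested.

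Deviations of same-numbered libraries correlated at -0.34, 0.29 and -0.35, and those of DMSO replicate 3 and SsA replicate 1, the pair of high mitochondrial share, at 0.55. With 3 libraries per group, these values cannot tell whether same-numbered libraries were handled together. With the replicate block 4616 rows were called, DUSP8 was at -0.56 (edgeR adjusted p = 0.0667) and SPRED1 at -0.41 (0.0595), and 9 list genes were higher. With block and length correction 2586 rows were called (1217 higher, 1369 lower), DUSP8 was at -0.42 and SPRED1 at -0.083, and 9 list genes were higher and 10 lower. SPRY4 and DUSP6, at 32 to 95 counts per library, had the largest SE of the 10 feedback genes, 0.39 and 0.37.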
